A study of Mus musculus with 6 samples.

Results

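The genes described here are 9 that control the shape and the removal of mitochondria: the fusion genes *Mfn1*, *Mfn2* and *Opa1*, the fission genes *Dnm1l*, *Fis1* and *Mff*, and the mitophagy genes *Pink1*, *Bnip3* and *Fundc1*. They were taken by gene symbol, and all 9 are among the 13003 genes listed in each library. Poly-A RNA from the ventricular myocardium of 3 WT mice (replicates 1, 3 and 4) and 3 *Dst-b* mutant mice (replicates 1, 2 and 3) was sequenced, 1 library per mouse. The mutants were homozygous for *Dst-b* E2610Ter, a nonsense allele made with CRISPR-Cas9 on C57BL/6J that truncates the muscle isoform of dystonin, a cytoskeletal linker, and is not restricted to the heart. The WT mice were age-matched, and all mice were 14 to 19 months old. The study used both sexes and several mutant lines, and the sex and line behind each library are not given in the sources used here. The paper set aside *Xist*, *Tsix* and *Bmp10*, whose differences it put down to extreme values in a single mouse. The sex of that mouse is not stated.

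Mitochondria fuse when the mitofusins Mfn1 and Mfn2 join their outer membranes and Opa1 joins their inner membranes. They divide when the dynamin Dnm1l is brought to the outer membrane by receptors such as Mff and Fis1. In mitophagy, a damaged mitochondrion is marked for removal with the kinase Pink1, or is bound directly to the autophagy machinery by receptors such as Bnip3 and Fundc1. Heart muscle is dense in mitochondria and makes abundant RNA for many of these genes. The comparison asks which of these RNAs differed between mutant and WT hearts.

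Of the 9 genes, *Mfn2* rose and *Pink1* fell in the mutants, while 7 missed the test's threshold. Levels are CPM, a gene's tags relative to the total of its library, scaled with the TMM factors of edgeR. A gene was called at p under 0.01 and an adjusted p under 0.1 by the quasi-likelihood test of edgeR, with the Benjamini-Hochberg adjustment made across 12955 tested genes, the thresholds of the study's methods. The 2 calls among 9 members stand beside 4.64% called among all genes tested, and 1 higher and 1 lower compare with 2.80% and 1.84%. The values of the 3 WT and 3 mutant mice did not overlap for 3 members (*Mfn2*, *Pink1* and *Dnm1l*), against 21.9% of all genes tested. The median log2 fold change of the members, mutant against WT, was 0.03, against 0.00 over all genes tested. With 9 members, these shares are a description only.

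**Figure D1:**
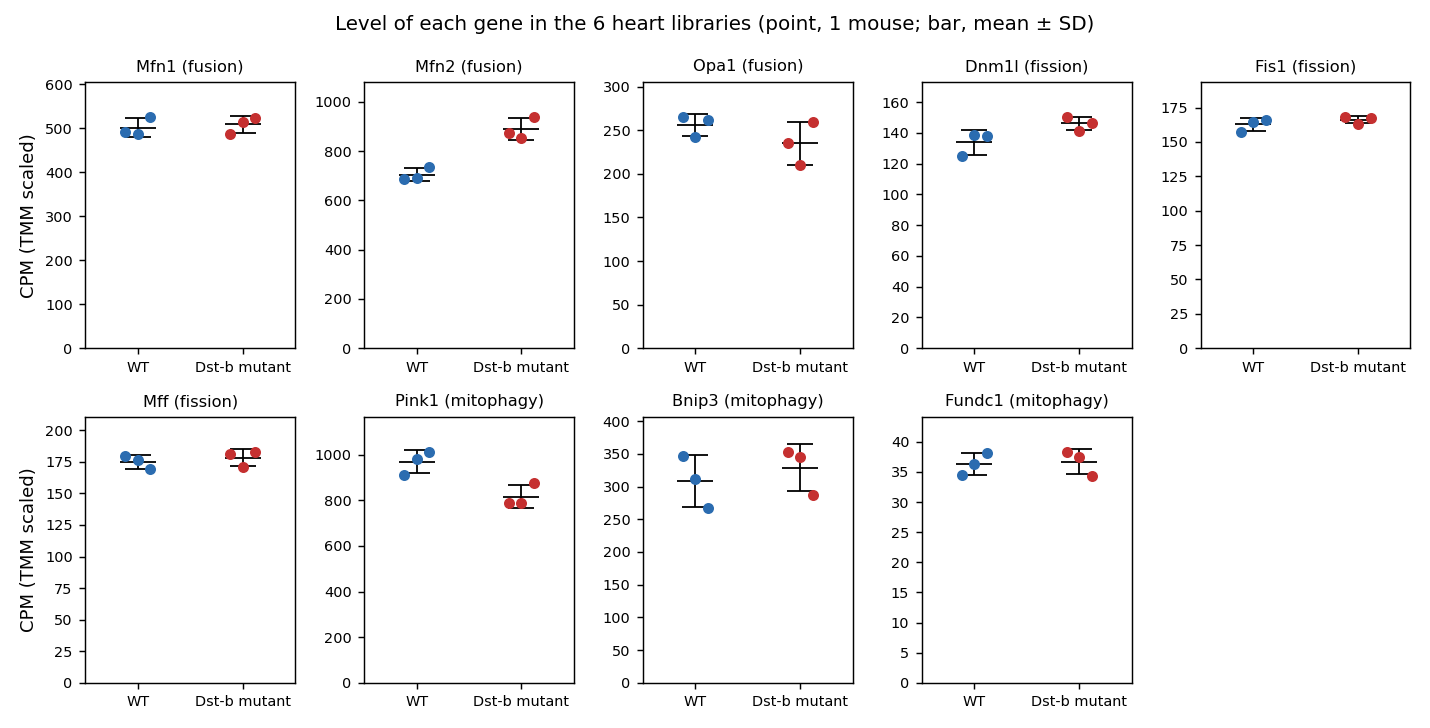
CPM after TMM scaling (vertical axes, from 0) of the 9 genes in WT (blue) and *Dst-b* mutant (red) hearts, with 1 point per mouse and the mean ± SD in black. All 3 mutant points of *Mfn2* lie above all WT points (854 to 939 against 687 to 735 CPM), and all 3 mutant points of *Pink1* lie below them (786 to 874 against 912 to 1012 CPM).

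Depth was 40693854 to 57580110 tags per library, so that counting error is small for the members. Markers of cardiomyocytes were high in every library: the summed CPM of 7 genes was 89484 to 93393 in WT and 89308 to 100220 in mutant hearts, and *Actc1*, cardiac actin, was called higher. The summed CPM of 4 smooth muscle and pericyte markers was 501 to 546 in WT and 368 to 468 in mutant hearts, with the pericyte genes *Rgs5* and *Pdgfrb* called lower. The smooth muscle genes among them, *Myh11* and *Tagln*, were not called (log2 fold change -0.05 and -0.002). The sums for 4 endothelial markers were 730.1 to 843 in WT and 679 to 770.5 in mutant hearts. Those of 5 fibroblast markers were 1602 to 1821 and 1645 to 1845, with the collagen gene *Col1a1* called higher. Those of 4 leukocyte markers were 147 to 154 and 144 to 163. None of these markers was at 0. Markers of atrial myocytes (3 genes tested) summed to 112 to 421 CPM in WT mice and 50.4 to 247 CPM in mutants, highest in WT replicate 3, and the 2 erythrocyte markers listed to 25.9 to 174 and 61.6 to 136 CPM. Those of 3 adipocyte markers were 1.27 to 5.59 and 2.90 to 6.66 CPM, and those of 2 skeletal muscle markers, 1 of them *Acta1*, which the heart also makes, 104 to 209 and 107 to 139 CPM. The part of these differences in the results below was not tested, and in whole tissue fewer cells of a type and less RNA per cell cannot be told apart. *Dst* itself is counted over all isoforms (WT 448 ± 25.2 CPM, mutant 429.5 ± 24.1 CPM, SD, n = 3 mice each), which does not check the genotype labels. Its log2 fold change was -0.06 (edgeR quasi-likelihood adjusted p = 0.703). By qPCR, the paper reports a significant reduction of *Dst-b* mRNA in mutant hearts and unchanged mRNA of the neural isoform *Dst-a*. The counts used here do not separate these isoforms, and the difference from the qPCR was not tested.

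The outer membrane fusion gene *Mfn2* was the member with the lowest p. It encodes mitofusin 2, which besides fusing mitochondria ties them to the endoplasmic reticulum. Its level was 687, 690.4 and 735 CPM in WT replicates 1, 3 and 4, and 872, 854 and 939 CPM in mutant replicates 1, 2 and 3. Every mutant heart lay above every WT heart, with a gap wider than the range within either genotype. The means were 704 ± 27.0 and 889 ± 44.6 CPM (SD, n = 3 mice each), a 1.26-fold rise with a log2 fold change of 0.34 (SE 0.06, 95% interval 0.20 to 0.47, edgeR quasi-likelihood adjusted p = 0.0189). *Mfn2* was called in all 16 alternative settings tried, with log2 fold changes of 0.29 to 0.39 and adjusted p from 5.82e-05 to 0.0823. The study lists *Mfn2* among its higher genes, chosen on these same libraries, so its direction here is not independent evidence.

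*Mfn1*, the paralogue of *Mfn2* and the stronger tether of outer membranes, did not pass the test. Its level was 491, 488 and 526 CPM in WT mice and 487, 515 and 524 CPM in mutants. The genotypes overlapped over almost their whole range (log2 fold change 0.02, 95% interval -0.11 to 0.15, adjusted p = 0.899 from the same edgeR test). The interval of *Mfn1* ends below the lower bound of that of *Mfn2*. Within each library, where the scaling between libraries plays no part, the deposited RPKM (CPM per kb of exon) of *Mfn2* was 1.48, 1.49 and 1.48 times that of *Mfn1* in WT replicates 1, 3 and 4, and 1.89, 1.75 and 1.89 times in mutant replicates 1, 2 and 3. The ratio rose from 1.48 ± 0.0107 to 1.84 ± 0.0815 (SD, n = 3 mice each) without overlap (p = 0.1 by an exact two-sided permutation test, which cannot go lower with 3 against 3). This ratio was chosen after the values were seen and contains *Mfn2*, already called, so its lack of overlap and its p are no separate support.

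*Opa1*, the dynamin of the inner membrane that also keeps the cristae in shape, had the lowest log2 fold change of the 7 members not called. It stood at 265, 242 and 262 CPM in WT mice and at 235, 210.2 and 259.9 CPM in mutants. Mutant replicate 3 lay within the WT range and the other two mutants below it (log2 fold change -0.13, 95% interval -0.31 to 0.05, edgeR quasi-likelihood adjusted p = 0.475). Of the 3 fusion genes, 1 was called.

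None of the 3 fission genes passed the test. *Dnm1l*, which encodes the dynamin that constricts mitochondria, was measured at 125, 139 and 138 CPM in WT mice and at 150.3, 142 and 147 CPM in mutants. All 3 mutants lay above all 3 WT hearts by a margin smaller than the range within WT (log2 fold change 0.13, 95% interval -0.02 to 0.27, unadjusted p = 0.0814 and adjusted p = 0.371 from the edgeR test). *Fis1*, which encodes a tail-anchored protein of the outer membrane, was measured at 157, 165 and 166 CPM in WT mice and at 168, 163 and 167 CPM in mutants. *Mff*, the gene of the main Dnm1l receptor, was measured at 179, 176 and 169 CPM in WT mice and at 181, 171 and 183 CPM in mutants. Both overlapped between genotypes, each with a log2 fold change of 0.03, and the upper bounds of their 95% intervals were 0.16 for both.

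Among the 3 mitophagy genes, *Pink1* fell. It encodes the kinase that gathers on damaged mitochondria and starts their removal, and mitofusin 2 is among its substrates. Its level was 912, 982 and 1012 CPM in WT replicates 1, 3 and 4, and 788, 786 and 874 CPM in mutant replicates 1, 2 and 3. Every mutant heart lay below every WT heart, but the gap between mutant replicate 3 and WT replicate 1 was narrower than the range within either genotype. The mean was 969 ± 51.5 CPM in WT mice and 816 ± 50.04 CPM in mutants (SD, n = 3 mice each), a log2 fold change of -0.25 (SE 0.06, 95% interval -0.39 to -0.10, edgeR quasi-likelihood adjusted p = 0.0849). The direction was the same in all 16 alternative settings, but the call was kept in 9 of them. It was lost at an adjusted p under 0.05 and with the replicate number as a block (log2 fold change -0.19, edgeR's adjusted p = 0.278). That block rests on the libraries numbered 1 and 3 only, because WT replicate 4 and mutant replicate 2 share no number. The call was also lost without any single library other than mutant replicate 3. On leaving out WT replicate 1, 3 or 4, edgeR's adjusted p was 0.108, 0.178 or 0.210. On leaving out mutant replicate 1 or 2, it was 0.282 or 0.153. The study's lists of lower genes, which cover only its enriched terms, the mitochondrion among them, do not name *Pink1*.

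The mitophagy receptors *Bnip3* and *Fundc1* did not pass the test. *Bnip3*, a receptor gene that is induced by low oxygen, stood at 346, 312 and 266 CPM in WT mice and at 353, 345 and 288 CPM in mutants. It varied more within a genotype than between them, with WT replicate 4 and mutant replicate 3 lowest. Its log2 fold change was 0.09 (95% interval -0.14 to 0.32, edgeR quasi-likelihood adjusted p = 0.716). Its paralogue *Bnip3l*, also a mitophagy receptor, stood at 70.2, 73.9 and 67.3 CPM in WT mice and at 77.3, 71.3 and 73.7 CPM in mutants (log2 fold change 0.07, adjusted p = 0.654 from the same test). *Fundc1*, an outer membrane receptor that binds the autophagy protein LC3, stood at 34.4, 36.3 and 38.2 CPM in WT mice and at 38.3, 37.5 and 34.3 CPM in mutants (log2 fold change 0.02, adjusted p = 0.943). Its relative *Fundc2* stood at 219 ± 8.80 CPM in WT mice and 210.5 ± 5.90 CPM in mutants (SD, n = 3 mice each; adjusted p = 0.685 by edgeR's quasi-likelihood test).

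**Figure D2:**
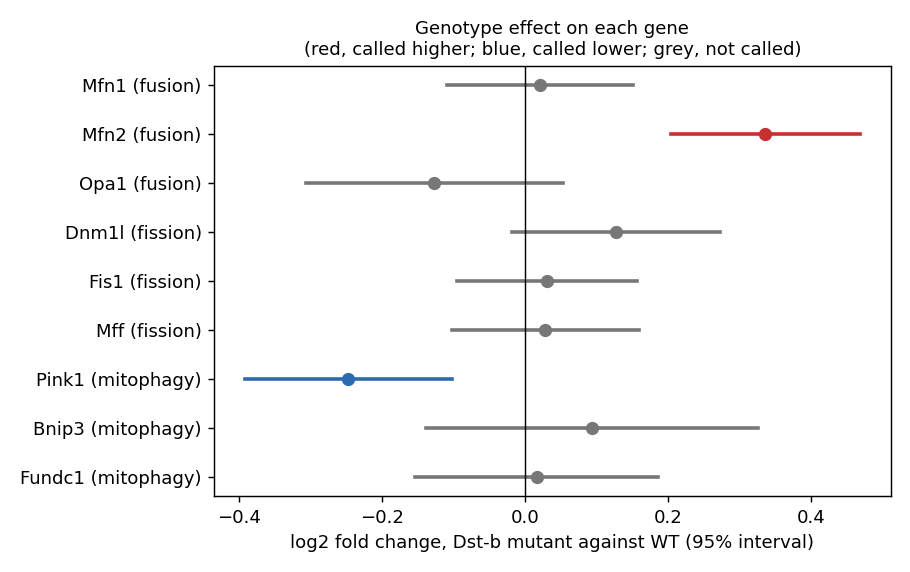
Log2 fold change of each gene, *Dst-b* mutant against WT (horizontal axis), as a point with its 95% interval from edgeR's quasi-likelihood fit. The intervals of *Mfn2* (0.20 to 0.47) and *Pink1* (-0.39 to -0.10) leave out 0, and those of the other 7 genes span it.

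For the 7 members not called, the 95% intervals of the log2 fold change lay between -0.31 and 0.32. These bounds say how large a change the 3 mice per genotype leave possible, and a p that missed the threshold does not show that a gene was the same in both genotypes. The members also differed in how steady they were within a genotype. The standard deviation of log2(CPM + 0.5) within a genotype was 0.03 for *Fis1* and 0.05 for *Mff*, 0.06 for both mitofusins, 0.12 for *Opa1* and 0.18 for *Bnip3*. Its median over the 6494 tested genes with a mean of at least 20 CPM was 0.09. Of those genes, 3.65% were steadier than *Fis1* and 89.8% were steadier than *Bnip3*.

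Compared per exon length, with the deposited RPKM, *Pink1* was the most and *Fundc1* the least abundant of the 9 genes. In WT hearts the mean RPKM was 407 ± 21.8 for *Pink1*, 174 ± 22.7 for *Bnip3*, 147 ± 4.49 for *Fis1*, 142 ± 5.35 for *Mfn2*, 105 ± 3.24 for *Mff* and 96.2 ± 3.92 for *Mfn1* (SD, n = 3 mice). It was 37.4 ± 1.77 for *Opa1*, 25.9 ± 1.57 for *Dnm1l* and 16.9 ± 0.870 for *Fundc1*. Of neighbours in this order, *Fis1* and *Mfn2* had ranges that overlapped, and the others did not. In mutant hearts the order differed in 1 place: *Mfn2*, at 182 ± 5.29 RPKM, stood above *Fis1*, at 151 ± 3.43 RPKM, and its range overlapped that of *Bnip3*, at 188 ± 24.3 RPKM. With the deposited lengths, *Mfn2* was below *Fis1* in each of the 3 WT libraries and above it in each of the 3 mutant libraries. That crossing depended on the lengths. With all exon bases of GENCODE M21 in their place, an alternative chosen after seeing the data, *Mfn2* stood above *Fis1* in both genotypes, at 135 ± 5.06 against 94.3 ± 2.89 RPKM in WT and 172 ± 5.001 against 97.3 ± 2.20 RPKM in mutant hearts (SD, n = 3 mice each). In deposited RPKM, *Pink1* was 2.76, 2.95 and 2.86 times *Mfn2* in WT replicates 1, 3 and 4, and 1.88, 1.91 and 1.93 times in mutant replicates 1, 2 and 3, a ratio of the 2 called genes and so given with no test. The deposited length was shorter than the GENCODE exons for all 9 genes, most for *Mff* (1649 against 9757 bases), *Fis1* (1102 against 1714) and *Bnip3* (1756 against 2265). On GENCODE lengths *Mff* moved from the fifth to the eighth place in WT, *Bnip3* (135 ± 17.6 RPKM) lay beside *Mfn2*, and *Pink1* and *Fundc1* kept the first and last places.

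**Figure D3:**
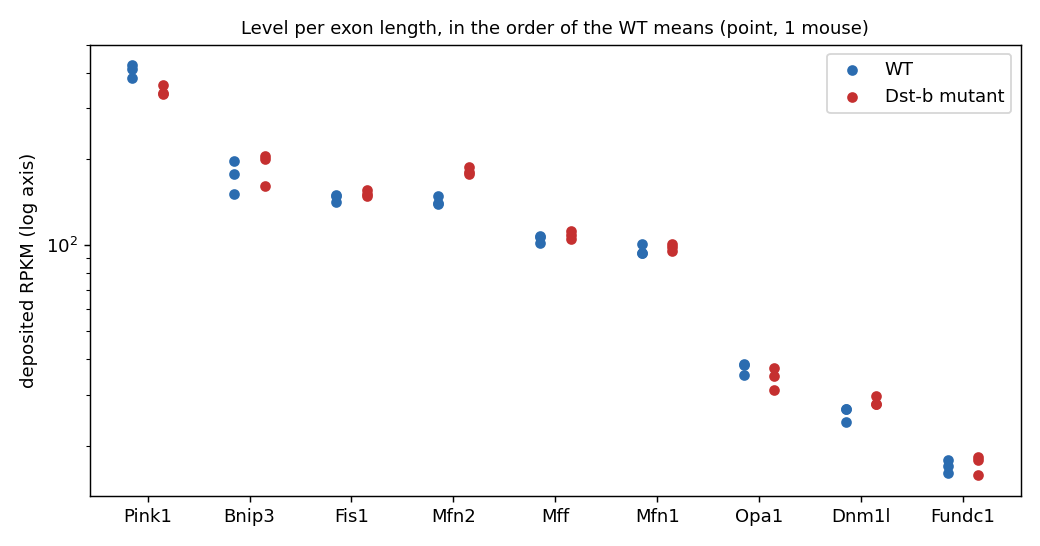
Deposited RPKM (log axis) of the 9 genes in each WT (blue) and *Dst-b* mutant (red) library, in the order of the WT means. *Pink1* is highest at 407 RPKM in WT, and *Mfn2* lies at 142 RPKM in WT and 182 RPKM in mutant hearts, where its place beside *Fis1* holds for the deposited lengths only.

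The 2 called genes lie on chromosome 4 of GRCm38, *Mfn2* from 147873586 to 147904909 and *Pink1* from 138313409 to 138326296, both on the minus strand and 9547289 bases apart. The neighbour of *Pink1*, *Ddost*, which was chosen after values had been seen, lies tail to tail with it, 789 bases away on the other strand, and had a log2 fold change of 0.01 (edgeR quasi-likelihood adjusted p = 0.965). No exon of another gene overlapped *Mfn2* in GENCODE M21, and for *Pink1* only the short RNAs *Mir7019* and *Gm27646* did, over 179 bases. Exons of a gene on the opposite strand overlapped *Bnip3* over 504 bases, *Dnm1l* over 243 and *Mff* over 195, and whether the counting used strand is not given in the sources used here. The promoter windows of RefSeq on GRCm38.p6, 250 bases before to 50 after a start, are shown for *Mfn2* and *Pink1* because these are the members that changed, in opposite directions. The GC box GGGCGG, a site of Sp-family factors searched on both strands, is in capitals, and for *Mfn2* the most upstream of its 3 annotated starts is given. The windows of the other two *Mfn2* starts lack GGGCGG and hold ACGTG, which the window shown lacks.
*Mfn2* at chr4:147904860-147905159, minus strand: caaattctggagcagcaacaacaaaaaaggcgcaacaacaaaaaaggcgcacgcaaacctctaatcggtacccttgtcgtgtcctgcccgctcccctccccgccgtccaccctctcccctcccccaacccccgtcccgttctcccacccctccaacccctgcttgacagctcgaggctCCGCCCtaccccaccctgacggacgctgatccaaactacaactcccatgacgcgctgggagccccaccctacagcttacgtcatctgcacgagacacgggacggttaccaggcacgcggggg
*Pink1* at chr4:138326247-138326546, minus strand: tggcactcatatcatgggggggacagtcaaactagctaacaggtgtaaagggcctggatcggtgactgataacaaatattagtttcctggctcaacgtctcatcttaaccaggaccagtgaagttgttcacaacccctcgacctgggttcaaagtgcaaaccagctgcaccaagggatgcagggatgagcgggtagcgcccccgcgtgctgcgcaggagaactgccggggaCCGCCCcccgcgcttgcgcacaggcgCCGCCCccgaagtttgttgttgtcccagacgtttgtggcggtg
The 9 members had 14 promoter windows, with a GC content of 49.0% to 71.7% against a median of 52.7% over 32851 windows. GGGCGG was present in 11 of the 14 windows, against 35.7% of all windows. Those 11 windows belong to 8 of the 9 genes, a count of genes that has no such share beside it. Windows of a gene are not always separate: those of *Mff* overlap and hold the same site. The ERR core AAGGTCA, the cyclic AMP response element TGACGTCA and TATAAA were in none of the 14 windows and in 4.72%, 1.79% and 13.6% of all windows. The E-box CACGTG was in the window of *Bnip3* alone among the members (7.15% of all windows), and ACGTG, the core of the hypoxia response element, which CACGTG contains, in windows of *Bnip3* and *Mfn2* (19.6% of all windows). The Nrf1 core GCATGCGC was in 1 window, that of *Opa1* (2.71% of all windows). These are matches of letters, searched on both strands.

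Of the other genes of mitochondrial dynamics, mitophagy, transport and content in lists written from general knowledge, 59 were tested, of which 1 was higher and 1 lower in mutant hearts. This is 3.39%, against 4.64% of all genes tested. The median log2 fold change was -0.01.
Of 15 tested genes of fusion and inner membrane shaping, which include the Opa1-cleaving proteases *Oma1* and *Yme1l1*, the prohibitins and the cristae scaffold gene *Immt*, none was called (median -0.02, range -0.18 to 0.17). The lowest p values were those of the prohibitin gene *Phb2* (122 ± 7.06 CPM in WT mice and 112 ± 9.02 CPM in mutants) and *Fam73b* (53.1 ± 6.75 and 59.8 ± 5.32 CPM, SD, n = 3 mice each), the gene of mitoguardin 2.
Of 8 tested fission genes, none was called (median -0.02, range -0.23 to 0.07). *Mtfr1*, a mitochondrial fission regulator gene, stood at 52.3, 51.1 and 59.3 CPM in WT mice and at 44.7, 45.2 and 49.2 CPM in mutants, without overlap (edgeR quasi-likelihood adjusted p = 0.194), and *Mtfp1*, which encodes an inner membrane fission process protein, at 125 ± 4.50 and 117 ± 6.70 CPM.
Of 20 tested mitophagy genes, 1 was called lower and none higher (median 0.01, range -0.34 to 0.25). The genotypes did not overlap for 6 of the 20, against 21.9% of all genes tested. Of these, *Optn*, *Calcoco1* and *Pgam5* were lower, and *Nbr1*, *Ambra1* and *Tax1bp1* were higher. *Nbr1* had a log2 fold change of 0.21 (edgeR quasi-likelihood adjusted p = 0.122) and was called with DESeq2 only. *Optn*, which encodes the autophagy receptor optineurin that binds ubiquitin chains on mitochondria marked by Pink1, fell from 167, 153 and 176 CPM in WT replicates 1, 3 and 4 to 124, 125 and 142 CPM in mutant replicates 1, 2 and 3. Its log2 fold change was -0.34 (SE 0.08, edgeR quasi-likelihood adjusted p = 0.0551). That call was kept only in the fits without WT replicate 3 and without mutant replicate 3 among the 6 that left out a library. On leaving out mutant replicate 1 or 2, edgeR's adjusted p was 0.224 or 0.110. On leaving out WT replicate 1 or 4, it was 0.141 or 0.140. The study's lists of lower genes, which cover only its enriched terms, do not name *Optn*.
Of 5 tested genes of mitochondrial transport along microtubules, 1 was higher (median 0.00, range -0.13 to 0.31). *Kif5b*, the heavy chain of the kinesin that carries mitochondria, rose from 233, 228 and 232 CPM in WT to 309, 272 and 279.9 CPM in mutant hearts (log2 fold change 0.31, SE 0.06, edgeR quasi-likelihood adjusted p = 0.0329), a call lost without mutant replicate 1 (adjusted p = 0.160). The study names *Kif5b* among its higher genes on these libraries.
Of 11 genes of mitochondrial content, such as the citrate synthase gene *Cs* and the import receptor gene *Tomm20*, none was called (median 0.01, range -0.06 to 0.12). Their summed CPM was 3072 to 3267 in WT and 3105 to 3359 in mutant hearts. *Hspd1*, the mitochondrial chaperonin gene, had the lowest p of them (459 ± 10.7 and 499.97 ± 24.1 CPM, SD, n = 3 mice each; adjusted p = 0.314 from the edgeR test), and *Tomm20* stood at 113, 109 and 111 CPM in WT mice and at 119, 109 and 118 CPM in mutants. With the libraries scaled to these 11 genes in place of all genes, the log2 fold change was 0.32 for *Mfn2* and -0.26 for *Pink1*, and both were called. Because the median of these 11 genes was 0.01, that scaling could move other genes only slightly. It is therefore no separate check of the 2 calls, and the amount of mitochondria was not measured.

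**Figure D4:**
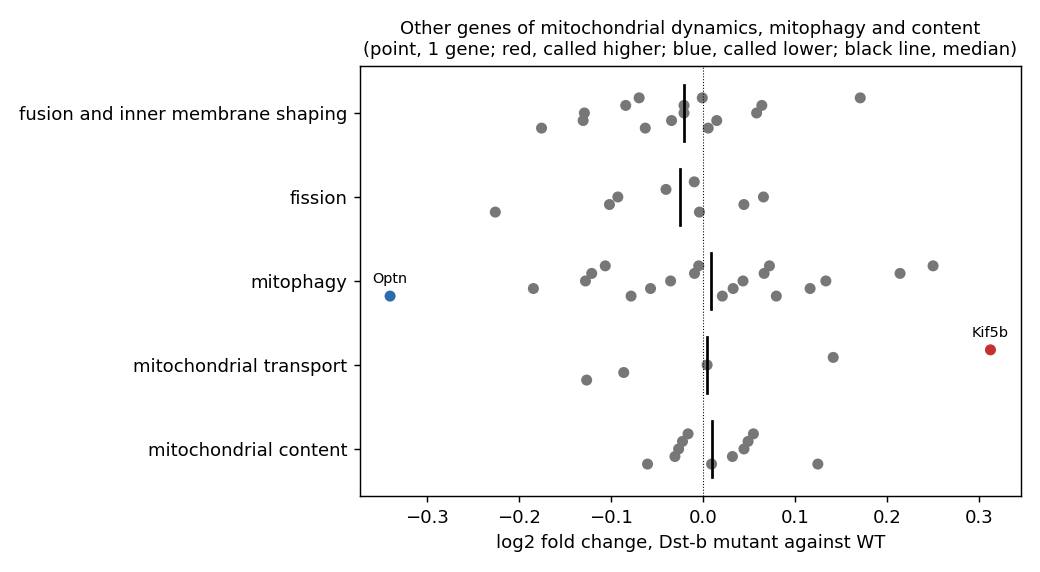
Log2 fold change, *Dst-b* mutant against WT (horizontal axis), of the 59 other genes tested, by list, with 1 point per gene and the median of each list as a black line. *Optn* (-0.34) in mitophagy and *Kif5b* (0.31) in transport are called, and the medians of all 5 lists lie between -0.02 and 0.01.

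The genes whose log2(CPM + 0.5) over the 6 libraries was most like that of *Mfn2* were *1600012F09Rik* (Pearson's r = 0.998), *Svil*, the supervillin gene (r = 0.995), and *Ehbp1l1* (r = 0.995), all called higher. Those most like *Pink1* were *Zfp503* (r = 0.997), *Rplp2* (r = 0.997) and *Gm16845* (r = 0.994), none of which was called. They were picked as the highest correlations over all genes tested, on 6 points that share the split by genotype, so these values describe the libraries only.

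**Figure D5:**
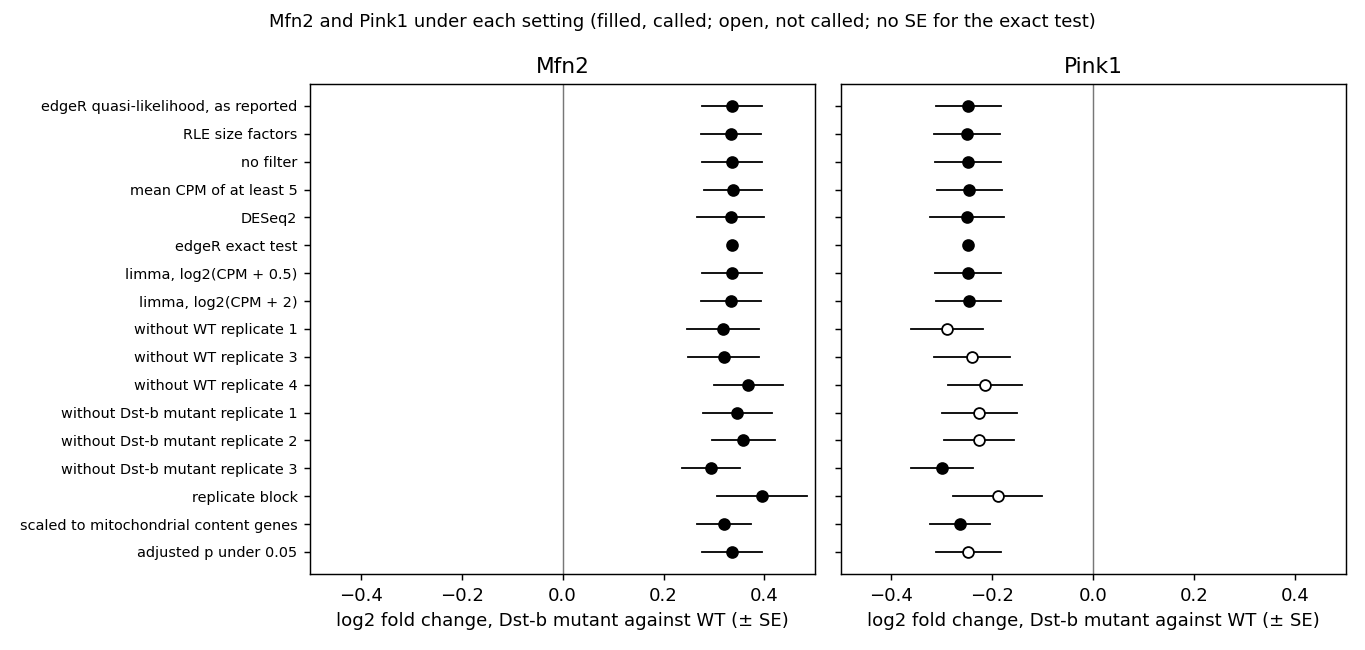
Log2 fold change ± SE of *Mfn2* and *Pink1*, *Dst-b* mutant against WT (horizontal axes), as reported and under the 16 alternative settings, with filled points where the gene was called. *Mfn2* is filled throughout, between 0.29 and 0.39, and *Pink1* is open in 7 of the 16 alternatives, between -0.30 and -0.19 over all of them.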

How the data were processed

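The authors aligned 150-nt read pairs to mm10 using OLego and counted genes using Quantas (versions not given in the sources used here). A TruSeq protocol is named in the paper and a directional NEBNext kit in the labels. The deposited values are estimated counts of tags, rounded here, and an RPKM made by the authors, used here only for levels and ratios between genes. In a library, 8.45% to 13.8% of genes had tags that were not whole (any decimal part).

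Genes with at least 1 CPM in at least 3 of the 6 libraries were tested, 12955 of 13003, with edgeR 4.0.16 in R 4.3.3 (TMM, glmQLFit and glmQLFTest, genotype only, two-sided). Intervals are from the same fit, with t quantiles. On simulated data (12900 genes), this test found 61% of 1.5-fold and 96% of 3-fold changes and made 18 false calls. Changes as small as those of *Mfn2* and *Pink1* were not simulated, so these shares do not say how often such changes would be found. Alternatives used DESeq2 1.42.0 and limma 3.58.1, among others, and scaling to the mitochondrial content genes was added after seeing the data. Positions came from RefSeq on GRCm38.p6 by Entrez identifier.

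A further gene of the set is not reported here. The members and lists were chosen with earlier results of these data known. Named were all members, their paralogues, in each list the called genes or otherwise the 2 with the lowest p, and the 3 genes most correlated with each called member. The mitophagy list genes without overlap between genotypes were also named. Of 64 list genes, 59 were listed. Plots used matplotlib 3.10.9 in Python 3.11.15. Replicates are separate mice. No set test was run.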

Additional observations from a re-analysis of the deposited data

How the results depend on the processing

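The count of members called (2 of 9) was 2 with median-of-ratios scaling, without a filter, with a floor of 5 on the mean CPM, DESeq2, edgeR's exact test, limma at both pseudocounts and scaling to the mitochondrial content genes. It was 1, *Mfn2*, at an adjusted p under 0.05 and with the replicate block, and 1 to 2 with 1 library left out. Over all genes 601 were called, against 1028 with DESeq2, 304 at an adjusted p under 0.05, 966 with the replicate block and 163 (without mutant replicate 1) to 519 with 1 library left out. The cause was not tested. The numbers 1 and 3 that WT and mutant libraries share are not stated to mark shared litters or days, and deviations from the group means correlated at 0.0072 and -0.049. The block takes its genotype difference from the libraries with those numbers only, because WT replicate 4 and mutant replicate 2 share none. Under the block, *Bnip3* turned to -0.044. With 1 library left out, log2 fold changes ran from -0.0018 to 0.056 for *Mfn1*, -0.0017 to 0.19 for *Bnip3* and -0.021 to 0.062 for *Fundc1*, none of them called in any setting. The other 6 members kept their direction in all 16 alternatives. With all GENCODE exon bases as the length, chosen after seeing the data, the RPKM of *Mfn2* over that of *Fis1* moved from 0.971 to 1.43 in WT and from 1.20 to 1.76 in mutant hearts.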
